A study of Homo sapiens with 3 samples.

Results

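The ligands of the epidermal growth factor (EGF) family and their ERBB receptors were followed in HT29 cells, an established human line from a colon adenocarcinoma, grown on 3 substrates. The members were the genes AREG, EREG, HBEGF, TGFA, BTC and EGF, which are 6 ligands, and EGFR, ERBB2, ERBB3 and ERBB4, which are the 4 receptors. They were picked by symbol as a gene family, with no threshold on their values but with earlier results of these data known. The members make up 10 of the 21610 genes that the arrays could name. These genes were represented by 17 probes, all of which are described here. The substrates were tissue culture polystyrene plates (TCP, labelled 2D), chitosan membranes (CS, labelled chitosan) and chitosan membranes grafted with hyaluronan (CSHA, labelled chitosan_HA). The labels name no treatment besides the surface, so the groups share the cell line and differ in what it grew on. Total RNA from each was labelled with a single dye and hybridized to 1 array, and all 3 arrays lay on 1 slide. A single array per condition allowed no test and no p-value is given, and the differences below come without any check by replicates.

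EGF family ligands are made as proteins anchored in the cell membrane, from which metalloproteases of the ADAM family cut the soluble growth factor. The ligands bind EGFR or ERBB4 on the same or a neighbouring cell, and the occupied receptor pairs with another member of the family and phosphorylates it, which recruits adaptor proteins and starts the Ras-ERK and PI3K pathways. ERBB2 has no known ligand of its own and serves as the partner of the others, whereas ERBB3 binds neuregulins, has little kinase activity and is a strong docking site for PI3K. In the intestinal epithelium this family is known for driving the proliferation of crypt cells, and EGFR is the target of antibodies used against colorectal cancer.

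The measurements read as follows. Signal is the background-corrected brightness of a spot in the deposited scanner files. Normalized log2 signal is log2 of that brightness minus the 75th percentile of the array, so that a value of 0 is the brightness of the 75th percentile probe. That percentile was a signal of 354, 423 and 337 for TCP, CS and CSHA, and from 48.6% to 51.1% of the probes on an array were well above background. A gene was read from its brightest probe and compared where at least 1 of the 2 arrays showed that probe well above background. Where only 1 array had measured it, the difference is a bound. Most member differences are given with their spread among spots. It was taken at like brightness from probes printed 10 times on the array, of which 628 to 642 per array were well above background. For many pathway genes this spread is left out, and it was 0.16 to 0.17 for the dimmest probes. The scanner software's own error of a difference was larger, at 0.20 on the log2 scale for the bright probes. Neither covers the variation between cultures. RNA from many cells was pooled on each array, so fewer cells of a type and less RNA per cell cannot be told apart. Brightness differs between probes for reasons of their sequence, so levels are ordered between substrates within a probe and never between genes.

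The colon epithelial markers, 9 of 9, were well above background on every array, with a summed signal between 974 and 1070 times the 75th percentile. Most of that epithelial sum came from KRT18, at 222702 on TCP, 220938 on CS and 203856 on CSHA. CDH17 was dim, at 33.0, 51.2 and 37.8. Of the 7 fibroblast markers, 2 were just above background on TCP, SPARC at 29.5 and VIM at 24.7, and 0 on CS or CSHA, and the collagens COL1A1, COL1A2 and COL3A1 with DCN and LUM were at background on every array. All 3 endothelial markers were well above background on every array but dim, with signals from 33.0 to 56.7. Of the 5 leukocyte markers, 4 had a probe, and their summed signal was 6.94 times the 75th percentile on TCP, 8.21 on CS and 11.6 on CSHA. All 4 were well above background on TCP and CSHA, and 3 on CS. This sum was carried by CD79A, at 1460, 1987 and 2201, and by CD14, at 834, 1408 and 1633. PTPRC, which marks all leukocytes, lay between 38.6 and 52.5, and the T cell marker CD3E went the other way, at 122, 20.6 and 34.4. The part of these signals in the differences below was not tested.

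Relative to TCP, the receptors ERBB3 and ERBB2 and the ligands AREG and BTC were higher on both membranes by their brightest probes, by more than the spread among spots. A second ERBB3 probe was lower on both, by 0.23 on CS and 0.34 on CSHA. HBEGF was the member that was clearly lower, on CSHA. On CS, 9 members could be compared, of which 7 were higher and 2 lower than on TCP. EREG and TGFA on CS, and TGFA on CSHA, count as higher here with differences within that spread. The median log2 difference of the members on CS was 0.23, beside 0.04 over the 14462 genes compared. On CSHA, 8 members could be compared, of which 7 were higher and 1 lower, with a median of 0.42 beside 0.13 over 14622 genes. Over all genes the shares that were higher than on TCP were 56.8% for CS and 61.7% for CSHA. Both comparisons share the TCP array, so they are not independent of each other. Between the membranes, 6 members were higher on CSHA than on CS and 3 were lower, with a median of 0.14 beside 0.07 over 14598 genes, of which 58.5% were higher on CSHA.

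At least 2-fold differences were few among the members. On CS, 1 member was at least 2-fold higher than on TCP, which was EGF by its bound, where 1.37% of all genes compared were, and 0 members were at least 2-fold lower, where 1.92% of all genes were. On CSHA, 1 member was at least 2-fold higher, ERBB3, beside 3.02% of all genes, and 1 was at least 2-fold lower, HBEGF, beside 3.98% of all genes. Between CSHA and CS, 0 members were at least 2-fold higher, where 2.27% of all genes were, and 1 was at least 2-fold lower, EGF by its bound, where 2.15% of all genes were. With so few members, 1 gene is already above these shares, and nothing particular to the family is read from the counts.

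**Figure D1:**
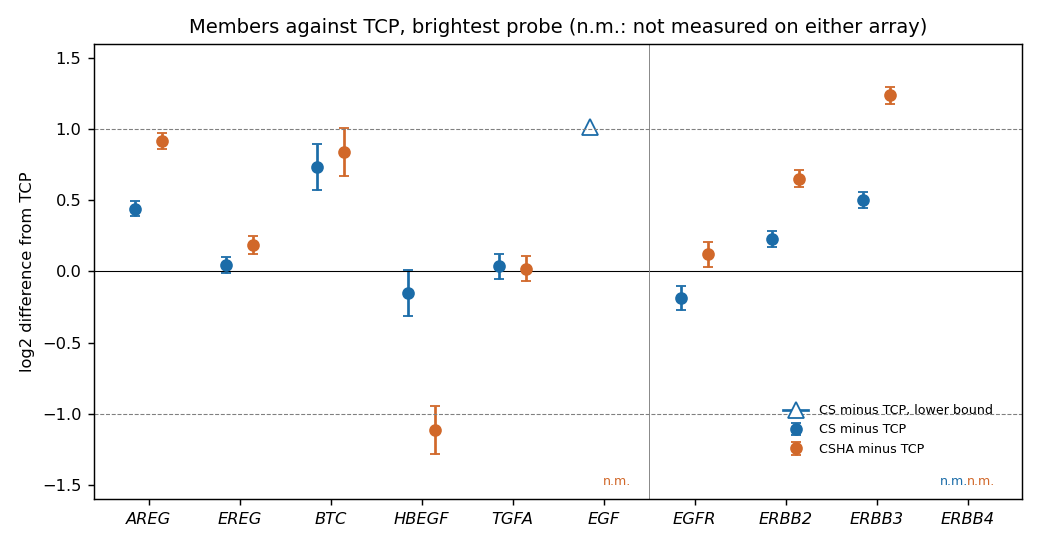
Log2 difference from TCP of the brightest probe of each ligand (left of the line) and receptor (right of the line), CS in blue and CSHA in orange, 1 array per substrate. Bars are the spread among spots, the open triangle is a lower bound, n.m. means that neither array was well above background, and dashed lines mark 2-fold. ERBB3 on CSHA lies at 1.24 and HBEGF on CSHA at -1.12, while TGFA stays near 0 on both membranes.

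Amphiregulin (AREG), a low-affinity EGFR ligand that is shed from epithelial cells, had the signals 10345 on TCP, 16758 on CS and 18631 on CSHA. After normalization these were 4.87, 5.31 and 5.79 on the log2 scale, so the order was TCP, then CS, then CSHA, and each step was larger than the spread among spots. AREG was 1.36-fold higher on CS (log2 difference 0.44, spread 0.05) and 1.89-fold higher on CSHA (0.92, spread 0.06) than on TCP. A second AREG probe, with the signals 3507, 5815 and 6349, gave 1.39-fold and 1.90-fold. Of 13638 genes measured on both arrays, 5.92% had a larger rise than AREG on CS, and of 13525 genes, 2.57% had a larger rise on CSHA. CSHA was also 1.39-fold above CS (0.48, spread 0.06).

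Betacellulin (BTC), which binds both EGFR and ERBB4, had the signals 129 on TCP, 257 on CS and 220 on CSHA, or -1.45, -0.72 and -0.62 after normalization. Both membranes were therefore above TCP, and they differed from each other by 0.10, less than the spread among spots of 0.16. BTC was 1.67-fold higher on CS (0.74, spread 0.16) and 1.79-fold higher on CSHA (0.84, spread 0.17). On CS, 1.52% of the genes measured had a larger rise. The size depended on the background handling. Normexp here added an offset of 50 and the deposited values had no background subtracted, and both shrink differences of dim probes. With normexp or the deposited values, BTC was higher by 0.46 or 0.44 on CS and 0.52 or 0.51 on CSHA.

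Epiregulin (EREG), a ligand of EGFR and ERBB4, had signals of 2887, 3551 and 3124 on TCP, CS and CSHA. The normalized values were 3.03, 3.07 and 3.21, so the substrates lay close together. The difference on CS was 0.04, within the spread among spots of 0.06, and that on CSHA was 0.18 with a spread of 0.06, within the scanner software's error of 0.20. EREG on CS and TCP could not be ordered, and its sign on CS varied with the scaling.

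Transforming growth factor alpha (TGFA), a high-affinity EGFR ligand, had the signals 374, 458 and 361 on TCP, CS and CSHA. The normalized values of 0.08, 0.12 and 0.10 lay within 0.04 of each other, where the spread among spots was 0.08 to 0.09. A dimmer TGFA probe, with the signals 64.5, 68.1 and 54.8, was lower by 0.18 on CS and by 0.16 on CSHA than on TCP, which is about the spread of 0.16 to 0.17 for probes of that brightness. The 3 substrates could therefore not be ordered for TGFA.

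Heparin-binding EGF-like growth factor (HBEGF), which binds EGFR and ERBB4 and also attaches to heparan sulfate, had the signals 149 on TCP, 160 on CS and 65.2 on CSHA. Normalized values were -1.25, -1.40 and -2.37, so TCP and CS lay together and CSHA was below both. CS differed from TCP by -0.15, within the spread of 0.16. On CSHA, HBEGF was 2.17-fold lower than on TCP (-1.12, spread 0.17) and 1.95-fold lower than on CS (-0.97, spread 0.16). Of the genes measured, 2.31% had a larger fall from TCP to CSHA, and 1.68% of 13837 genes had a larger fall from CS to CSHA. HBEGF was lower on CSHA under every setting computed, but by 0.66 with normexp, 0.69 with the deposited values and 0.69 with scaling to spike-in probes, which is under 2-fold.

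EGF itself, the founding ligand of the family, was at the limit of the assay. Its probe had signals of 5.18 on TCP, 58.2 on CS but 15.9 on CSHA, and it was well above background on CS and not well above background on TCP or CSHA. The CS value of EGF was at least 2.02-fold above that of TCP, and the CSHA value was at least 2.05-fold below that of CS, and no value is given for CSHA against TCP. These bounds rest on 1 spot per array and passed 2-fold by little, and both fell under 2-fold with other background handling. With normexp or the deposited values, the difference of CS from TCP was 0.59 or 0.80, and that of CSHA from CS was -0.31 or -0.30.

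Of the other ligands of the family, EPGN and the neuregulins NRG1, NRG2 and NRG3 were not well above background on any array. Neuregulins are the ligands of ERBB3 and ERBB4. NRG4, which binds ERBB4, had the signals 189 on TCP, 283 on CS and 162 on CSHA, which gave log2 differences from TCP of 0.32 on CS and -0.15 on CSHA, with spreads of 0.16 and 0.17. It was thus highest on CS, and its value on CSHA was within the spread of that on TCP.

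**Figure D2:**
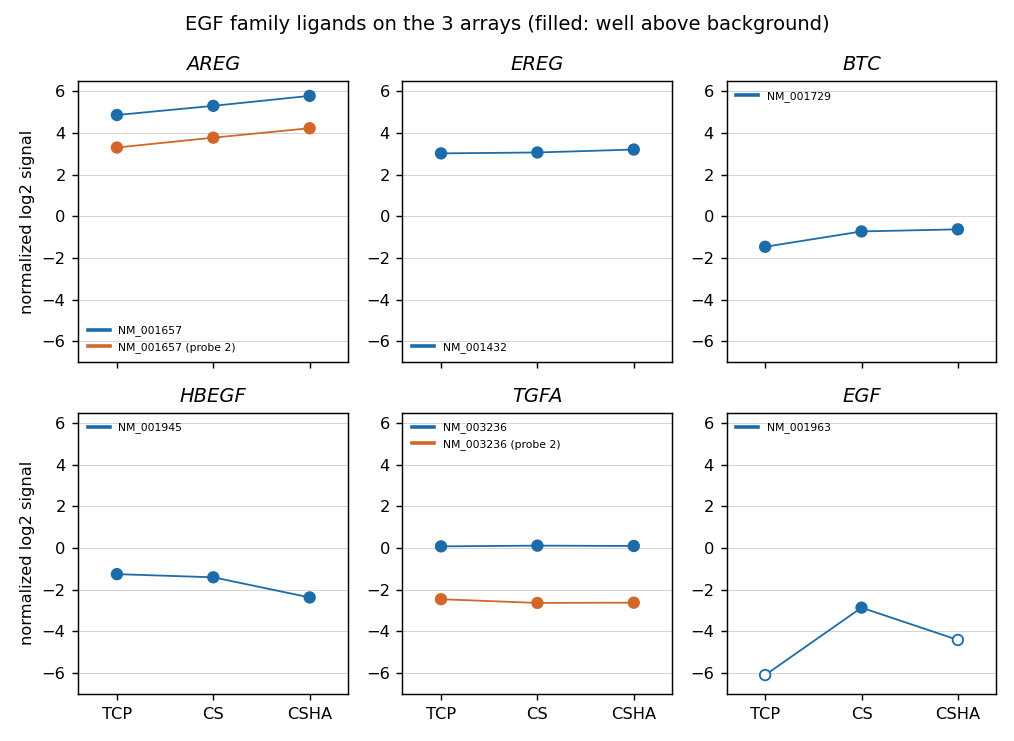
Normalized log2 signal (vertical axis) of every probe of the 6 ligands on the TCP, CS and CSHA arrays, 1 point per array. Filled points are well above background and open points are not, and lines join values of the same probe, whose accession is given. Both AREG lines climb from TCP to CSHA, HBEGF drops from -1.40 on CS to -2.37 on CSHA, and EGF is measured on CS alone.

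ERBB3, the kinase-impaired receptor for neuregulins, was by its brightest probe the member with the largest measured difference. That probe, designed to the accession NM_001982, had the signals 2689 on TCP, 4557 on CS and 6048 on CSHA. Normalized values were 2.93, 3.43 and 4.16, in the same order of substrates as for AREG, with each step larger than the spread. ERBB3 was 1.42-fold higher on CS (0.51, spread 0.06), 2.36-fold higher on CSHA (1.24, spread 0.06) than on TCP, and 1.66-fold higher on CSHA than on CS (0.73, spread 0.06). On CSHA, 123 of 13525 genes, or 0.909%, had a larger rise.

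The other ERBB3 probes did not move alike. A dim probe to the same accession, with the signals 33.6, 46.4 and 83.1, was higher by 0.21 on CS, where the spread was 0.16, and by 1.38 on CSHA, where it was 0.17. The probe designed to NM_001005915, a short transcript that encodes a secreted form without the membrane-spanning and kinase parts, had the signals 884, 903 and 665. It was lower by 0.23 on CS and 0.34 on CSHA, with spreads of 0.08, against the direction of both probes to NM_001982. Whether that probe also binds the full-length transcript was not tested. With the mean over all ERBB3 probes in place of the brightest, the difference on CSHA was 0.76, under 2-fold and below that of AREG. On CS that mean gave 0.16, under the scanner software's error of 0.20 for the brightest probe.

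ERBB2 (HER2), the receptor without a ligand of its own, was the member with the firmest measurement, since its probe was printed 10 times on each array. The mean normalized values and their SD over 10 spots were 3.61 ± 0.03 on TCP, 3.84 ± 0.02 on CS and 4.26 ± 0.02 on CSHA. Its highest TCP spot, at 3.64, lay below the lowest CS spot, at 3.79, and the highest CS spot, at 3.86, lay below the lowest CSHA spot, at 4.23. The spots of the 3 arrays thus did not overlap, although the spots of an array share 1 RNA sample. The brightest probes printed 10 times had a median SD among spots of 0.04. How many of the 902 probes printed 10 times separated in this way was not counted, so the separation is not read as particular to ERBB2. Mean signals were 4314 on TCP, 6032 on CS and 6452 on CSHA, which after normalization made ERBB2 1.17-fold higher on CS (0.23, spread 0.06) and 1.57-fold higher on CSHA (0.65, spread 0.06). The spread of 0.06 is that of single spots, whereas each ERBB2 value is a mean of 10 spots. The difference on CS was near the scanner software's error of 0.20, and 21.0% of genes had a larger rise there, against 7.65% on CSHA.

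EGFR, the receptor for AREG, TGFA, EGF and most of the other ligands, had the signals 307, 322 and 319 on TCP, CS and CSHA. Normalized, these were -0.20, -0.39 and -0.08. EGFR was lower by 0.19 on CS and higher by 0.12 on CSHA than on TCP, where the spread was 0.09 and the scanner software's error was 0.21. Relative to the median of all genes, the difference on CSHA was -0.003, and its sign changed with the setting. The larger step was that from CS to CSHA, at 0.31 with a spread of 0.08. The probes designed to NM_201283 and NM_201282, shorter transcripts that encode secreted forms, had signals from 67.1 to 82.4 and from 27.3 to 34.6. The first differed from TCP by -0.04 on CS and -0.01 on CSHA, and the second, which TCP did not measure above background, had bounds of at least 0.08 on CS and at least 0.39 on CSHA.

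ERBB4, the other neuregulin receptor, was not well above background on any array with either of its probes, whose signals lay between 4.60 and 7.91. The dimmest probe well above background had a signal of 24.1 for TCP, 21.1 for CS and 22.6 for CSHA, so any ERBB4 RNA was under what the arrays could detect. Among the receptors, EGFR, ERBB2 and ERBB3 were thus measured on every substrate, with medians of the receptor differences of 0.23 on CS and 0.65 on CSHA. The ligand median was 0.24 on CS over 6 ligands, with EGF at its bound, and 0.18 on CSHA over 5 ligands. Over the 5 ligands measured on all arrays it was 0.04 on CS, so the order of the membranes turned.

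**Figure D3:**
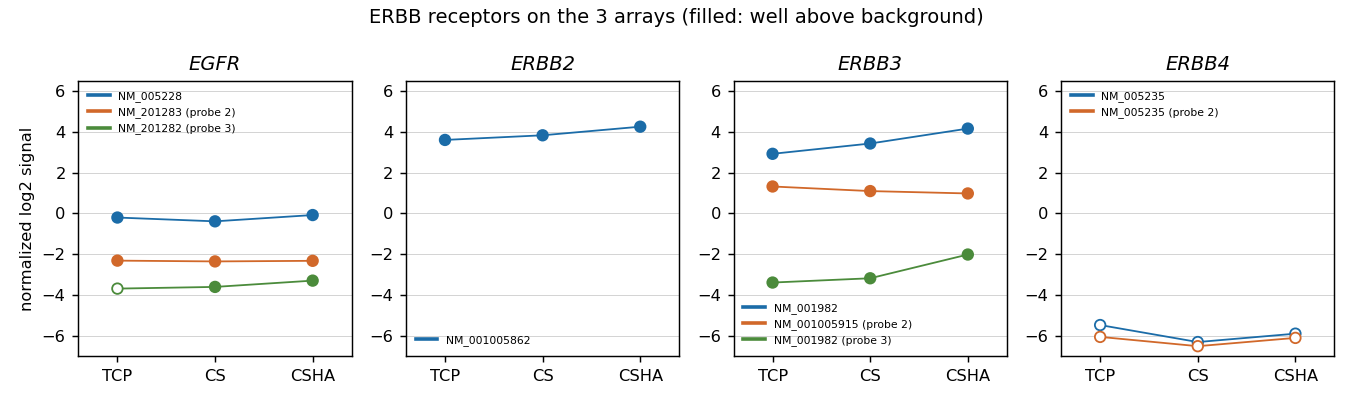
Normalized log2 signal (vertical axis) of every probe of the 4 receptors on the TCP, CS and CSHA arrays, 1 point per array and the mean of 10 spots for ERBB2. Filled points are well above background, open points are not, and lines join values of the same probe. Of the 3 ERBB3 probes, both to NM_001982 climb toward CSHA and the one to NM_001005915 declines, and both ERBB4 probes lie at background.

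**Figure D4:**
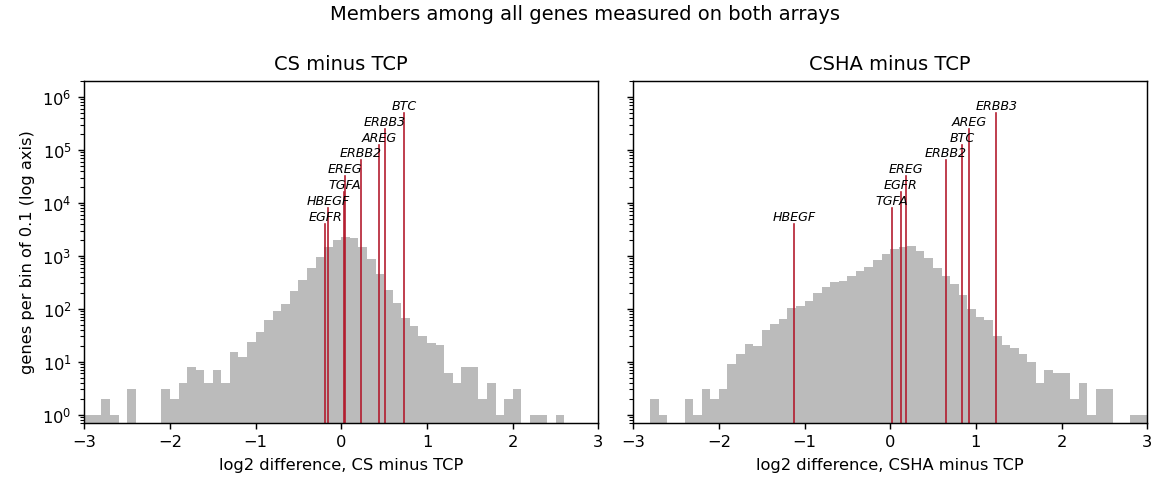
Distribution of log2 differences from TCP over all genes measured on both arrays, 13638 for CS (left) and 13525 for CSHA (right), in bins of 0.1 on a logarithmic count axis. Red lines mark the measured members, and their heights carry no value. On CSHA, ERBB3, AREG and BTC lie in the upper tail and HBEGF in the lower tail, and EREG and TGFA lie near the middle of both distributions.

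The RefSeq promoter table held 9 of the 10 members. Of those, 4 ligand promoters are shown, because EREG, AREG and BTC are neighbours on chromosome 4 with unequal differences, and HBEGF is the ligand that was lower on CSHA. From EPGN to BTC, the RefSeq annotation lists EPGN, EREG, AREG and BTC as its only 4 protein-coding genes. Of this cluster, EPGN was at background, EREG differed little between substrates, and AREG and BTC were higher on both membranes. The sequences, credited to RefSeq on GRCh38.p14, run 5′ to 3′ on the strand of the gene from 250 bases before to 50 bases after its start. They are AREG at chr4:74444886-74445185 on the plus strand, EREG at chr4:74364895-74365194 on the plus strand, BTC at chr4:74794474-74794773 on the minus strand and HBEGF at chr5:140346554-140346853 on the minus strand. Capitals mark every match, on either strand, of the motifs searched.
AREG: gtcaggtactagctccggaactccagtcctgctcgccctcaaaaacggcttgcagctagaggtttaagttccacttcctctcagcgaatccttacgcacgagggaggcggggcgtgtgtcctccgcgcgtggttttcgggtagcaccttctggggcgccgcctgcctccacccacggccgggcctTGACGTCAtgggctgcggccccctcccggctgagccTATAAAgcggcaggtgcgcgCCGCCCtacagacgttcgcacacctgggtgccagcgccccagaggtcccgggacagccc
EREG: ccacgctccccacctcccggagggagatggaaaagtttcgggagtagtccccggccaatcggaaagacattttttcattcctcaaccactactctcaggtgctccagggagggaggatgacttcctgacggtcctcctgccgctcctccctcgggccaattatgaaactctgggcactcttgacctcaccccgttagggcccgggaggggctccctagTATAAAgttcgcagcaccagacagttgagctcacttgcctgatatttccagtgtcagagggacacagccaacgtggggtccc
BTC: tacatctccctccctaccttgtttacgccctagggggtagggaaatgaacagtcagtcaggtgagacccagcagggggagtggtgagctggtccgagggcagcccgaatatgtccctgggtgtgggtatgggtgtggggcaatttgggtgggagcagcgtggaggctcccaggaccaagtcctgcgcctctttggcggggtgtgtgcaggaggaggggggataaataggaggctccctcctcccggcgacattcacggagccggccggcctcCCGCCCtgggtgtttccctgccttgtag
HBEGF: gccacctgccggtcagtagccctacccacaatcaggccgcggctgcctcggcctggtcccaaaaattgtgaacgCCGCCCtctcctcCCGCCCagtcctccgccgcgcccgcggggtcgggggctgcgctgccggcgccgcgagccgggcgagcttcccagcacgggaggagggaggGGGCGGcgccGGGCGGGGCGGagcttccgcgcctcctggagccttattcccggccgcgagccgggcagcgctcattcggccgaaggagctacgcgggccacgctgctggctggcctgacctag

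The motifs were the cAMP response element TGACGTCA, the TATA box TATAAA, the GC box GGGCGG, the AP-1 site TGANTCA and the TCF/LEF core CTTTGAT. AREG held the cAMP response element at 65 bases before its start, a motif present in 1.85% of the 35116 promoters of that length, and a TATA box at 29 bases before. EREG held a TATA box at 32 bases before its start. Anywhere in the window and on either strand, 11.5% of all promoters held a TATA box. The GC box, found in 45.0% of all promoters, matched 5 times in HBEGF, of which the last pair shares 1 base, and 1 time each in AREG and BTC on the minus strand of the gene. The AP-1 and TCF/LEF letters, found in 7.71% and 2.62% of promoters, are not in these 4 windows. A match describes the sequence, and the arrays measured RNA and no binding.

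Outside the members, the pathway was read from lists of genes for ligand shedding, receptor adaptors, receptor turnover, feedback on ERK and genes known to be induced by EGFR signaling. Across these lists, differences from TCP went both ways and were mostly under 2-fold. For comparison with the list counts below, 56.8% of all genes were higher than on TCP for CS and 61.7% for CSHA. The medians over all genes were 0.04 and 0.13. At least 2-fold, 3.02% of all genes were higher and 3.98% lower on CSHA. By brightest probes, RHBDF1 on CSHA was the 1 gene at least 2-fold from TCP. A second VEGFA probe, with the signals 341, 439 and 112, was lower by 1.53 on CSHA. The brightest VEGFA probe was higher by 0.58 there. An ATF3 probe other than the brightest was higher by 1.12 on CSHA.

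In the shedding list, 9 of 10 genes were compared, and TIMP3, an inhibitor of these proteases, was at background. On CS, 2 were higher and 7 lower with a median of -0.15, and on CSHA 7 were higher and 2 lower with a median of 0.10. RHBDF1 (iRhom1), which escorts the protease ADAM17 to the cell surface, had the signals 4974 on TCP, 4167 on CS and 1773 on CSHA, a log2 difference of -0.51 on CS and -1.42 on CSHA with a spread of 0.06. It was thus lowest on CSHA, and the step from CS to CSHA was the larger one. ADAM17, the main sheddase of AREG, TGFA and HBEGF, had the signals 879, 1166 and 1232 and lay above TCP by 0.15 on CS and 0.56 on CSHA. ADAM19 was lower by 0.78 on CS and 0.62 on CSHA, and its second probe was lower by 0.78 and 0.42. ADAM12 was dim, with the signals 42.6, 42.8 and 70.0, and was higher by 0.79 on CSHA than on TCP and by 1.03 than on CS, while its other probes were at background.

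Of the 12 adaptor genes, 8 were higher and 4 lower on each membrane, with medians of 0.14 on CS and 0.18 on CSHA. GAB2, a scaffold for PI3K, was the highest on CS at 0.51, and SOS2, an exchange factor that activates Ras, the highest on CSHA at 0.60. PLCG1, a phospholipase that docks on the receptors, was the lowest on both, by 0.53 and 0.66. Spreads were 0.16 to 0.17 for each of these.

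Of the 17 genes for receptor turnover and inhibition, 9 were higher and 8 lower on CS with a median of 0.04, and 12 were higher and 5 lower on CSHA with a median of 0.21. CBL and CBLB, ubiquitin ligases that mark EGFR for degradation, did not move alike. CBL differed from TCP by -0.29 on CS and 0.25 on CSHA, and CBLB by 0.26 on CS and 0.61 on CSHA. RNF41 (Nrdp1), the ubiquitin ligase that targets ERBB3, had signals of 776, 882 and 419 on TCP, CS and CSHA and was lower by 0.82 on CSHA, with a spread of 0.09. It was the lowest of the list on CSHA, and TCP and CS lay within the spread of each other. CD2AP, an adaptor of endocytosis, was the highest on CS at 0.33.

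Among inhibitors of ERK, 3 were higher and 6 lower on CS with a median of -0.22, and 6 were higher and 4 lower on CSHA with a median of 0.07. SPRY2, which restrains receptor signaling to Ras, lay above TCP by 0.15 on CS and 0.50 on CSHA. DUSP4, a phosphatase of ERK, was lower by 0.63 and 0.52. Of the genes induced by EGFR signaling, 7 were higher and 14 lower on CS with a median of -0.19, and 10 were higher and 12 lower on CSHA with a median of -0.06, beside 0.04 and 0.13 over all genes.

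The induced genes spread in both directions. ATF3, a stress and immediate early transcription factor, was the highest on CS at 0.77 by its brightest probe, while its other probes gave 0.48, -0.06 and a bound of at least 0.46. EGR1, a classical early target of ERK, was the lowest on CS at -0.72. On CSHA, DUSP1 was the highest at 0.94 and CCND1 (cyclin D1), which carries growth factor signals to the cell cycle, the lowest at -0.89. Other genes, chosen after their values were seen, lay near these ends. JUN at 0.91, KLF6 at 0.94 and MYC at 0.85 were higher on CSHA. A dim second KLF6 probe, not well above background on CSHA, was lower there by at least 0.41. Lower on CSHA were ETV4 at -0.87, PLAUR at -0.86 and JUNB at -0.82.

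**Figure D5:**
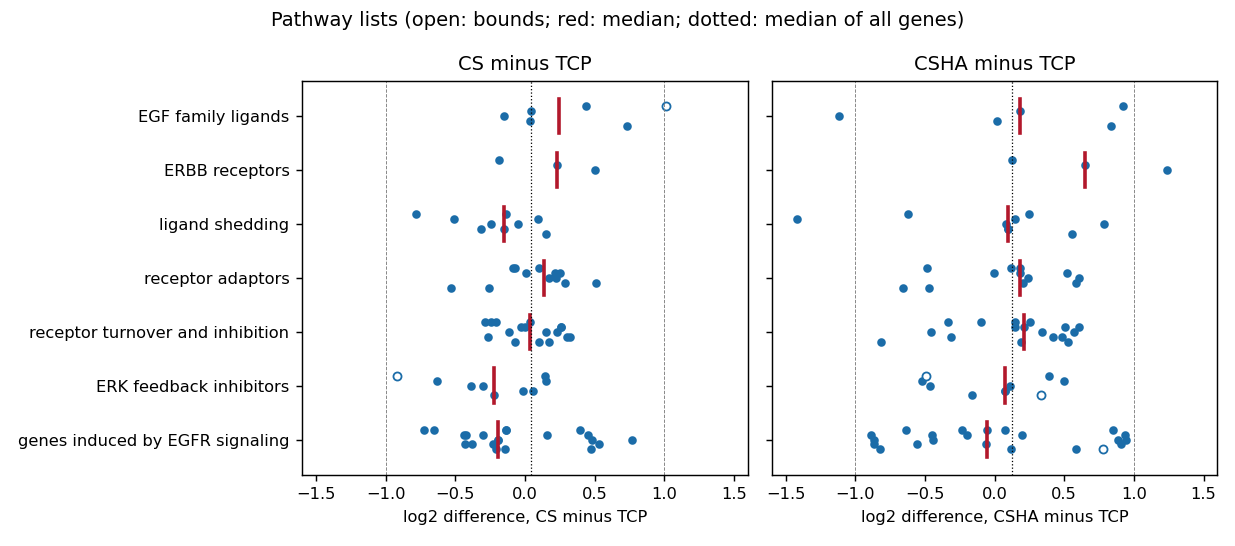
Log2 difference from TCP of each gene of the pathway lists, for CS (left) and CSHA (right), 1 array per substrate. Each point is a gene, open points are bounds, red bars are list medians, the dotted line is the median of all genes and dashed lines mark 2-fold. RHBDF1 on CSHA, at -1.42, is the point furthest to the left, and the induced genes on CSHA fall on both sides of 0, with none between 0.19 and 0.58.

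The genes most like ERBB3 over the 3 arrays, by distance between their pairs of log2 differences from TCP, were PPME1 at 0.03, EDN1 at 0.03 and GRHL3 at 0.05, and 12 of 13476 genes lay within 0.1. Among those most like HBEGF were DPP3 at 0.02 and H3C8 at 0.03, and 52 genes lay within 0.1. With 3 arrays, likeness of this kind is a description of a few numbers.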

How the data were processed

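The authors deposited, for HT29 cells on TCP, CS and CSHA, the scanner files with the intensity of every spot, and a table of log2 values. These log2 values are the median signal shifted and centred per spot, with column medians of 0.0130, -0.129 and 0.0427, and served as an alternative. Per the file headers, Feature Extraction 10.7.3.1 read the scans, while the methods give another version, and the labels and methods name different RNA and labelling kits.

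As the methods state, the signal was floored at 1 and shifted by each array's 75th percentile, here on the background-corrected processed signal. Control spots and outlier spots (264 to 359 per array) were left out, and spots of a probe were averaged. Symbols came from a RefSeq table matched by accession, which named 30000 of 50599 probes. The array design uses an older build, hg19, so only promoter sequences carry coordinates. The brightest probe stood for a gene, with bounds set at whichever was brighter on the dim array, the probe itself or the dimmest probe well above background. Pathway genes named are the highest and lowest of each list measured on all arrays, and any at least 2-fold, with the 3 genes nearest to ERBB3 and to HBEGF, of which not every one is reported here. The members and lists were chosen with earlier results of these data known. Calculations were tested on simulated data. In all, 9 alternative settings and thresholds of 1.5-fold and 3-fold were tried (R 4.3.3, limma 3.58.1, Python 3.11.15). Normexp added an offset of 50 and the deposited values had no background subtracted, so both shrink differences of dim probes by construction. Columns of the deposited table without a sample numbered 0.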

Additional observations from a re-analysis of the deposited data

How the results depend on the processing

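No paired analysis was possible because each substrate had 1 array and the labels give no replicate numbers. Of 232 member differences under the alternatives, 179 stayed within the spread among spots and 53 moved, and 12 changed sign. For list medians these counts were 174 and 42 of 216, with 8 sign changes. List medians were set against 1 typical spread of a gene, 0.0746, which does not measure the spread of a median over several genes. Some member differences and list medians could not move. For members, and for lists whose genes were all measured on all arrays, the settings with no filter and with probes measured on all arrays return the main value. The mean over probes does so for members with 1 probe. Scaling over detected probes, by percentile or by median, and scaling to spike-in probes shift all genes of a comparison by the same amount. With the median of detected probes that shift was smaller than any spread among spots. Both sets of counts therefore overstate how stable the values were. AREG, BTC, ERBB2 and ERBB3 were higher than on TCP on both membranes, and HBEGF was lower on CSHA, under all 9 settings. On CS, HBEGF stayed between -0.20 and -0.10, where the spread among spots was 0.16. The ranges on CSHA were 0.83 to 1.35 for AREG, 0.51 to 1.27 for BTC, 0.57 to 1.08 for ERBB2, 0.76 to 1.67 for ERBB3 and -1.22 to -0.66 for HBEGF. Scaling to the 7 brightest spike-in probes moved the median of all genes on CSHA from 0.13 to 0.56 against TCP and from 0.07 to 0.45 against CS. Relative to the median of all genes, ERBB3 on CSHA stayed between 0.66 and 1.23 and HBEGF between -1.29 and -0.75.

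On CS against TCP, the number of members at least 2-fold higher, 1, was 0 with normexp, with the percentile over detected probes, with probes measured on all arrays, with the deposited values and at 3-fold, and 2 at 1.5-fold. The number higher on CSHA than on TCP, 1, was 4 with spike-in scaling and at 1.5-fold, 2 with no filter, and 0 with the mean over probes and at 3-fold. Spike-in scaling took 12.2% of the genes compared past 2-fold upward in that comparison. With no filter this share was 5.23%, and in the main setting it was 3.02%. The number lower on CSHA than on TCP, 1, was 0 with normexp, spike-in scaling, the deposited values and at 3-fold. Between CSHA and CS, the number higher, 0, was 1 with spike-in scaling and at 1.5-fold. The number lower, 1, was 2 with quantile normalization and at 1.5-fold, and 0 with normexp, spike-in scaling, probes measured on all arrays, the deposited values and at 3-fold. Except where named above, the causes were not tested. Shares over the whole array were not computed for 1.5-fold and 3-fold, so the member counts at those thresholds have no background. Nothing particular to the family is read from any of these counts.

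Over all genes, CS against TCP had 198 past 2-fold upward and 278 downward, beside 57 and 104 with normexp, 68 and 137 with the deposited values, 84 and 80 with probes measured on all arrays and 635 and 1152 with no filter. On CSHA, 442 were higher and 582 lower than on TCP, against 155 and 292 with normexp, 184 and 328 with the deposited values, 1129 and 1190 with no filter and 1768 and 181 with spike-in scaling. Against CS, 332 were higher and 314 lower, against 105 and 148 with normexp, 986 and 117 with spike-in scaling and 244 and 373 with quantile normalization. Detection limits the values of EGF, ERBB4 and the probe to NM_201282, which were not well above background on at least 1 array.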
